A study of Rattus norvegicus with 10 samples.

Results

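The genes of bile acid synthesis and its receptors were measured in liver RNA of 10 rats on 1-colour oligonucleotide arrays. The set was given as a list of 10 genes, and a probe was assigned to a gene where its accession gave the gene symbol. Of the 10 genes 9 had a probe (11 probes in all), out of 13438 gene symbols measured. Baat matched no probe by accession and was not analysed here. The rats were male Wistar rats in 3 groups: 3 control rats without irradiation (0 Gy), 3 rats after total-body irradiation with 6.5 Gy of 60Co gamma rays (TBI), and 4 rats given MASM, matrine derivative 1b, by gavage before the same irradiation (MASM + TBI, 30 mg/kg a day for 3 days). Livers were taken 24 h after the exposure. No array of MASM without irradiation was analysed here, so an effect of MASM alone cannot be told apart from its effect in irradiated rats.

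Bile acids are made from cholesterol in hepatocytes, by a classic route that starts with Cyp7a1 and by an acidic route that starts with Cyp27a1 and Cyp7b1. The nuclear receptor Nr1h4 (FXR) senses bile acids and induces Nr0b2 (SHP), a co-repressor that lowers transcription of Cyp7a1 and Cyp8b1. The liver receptor Fgfr4 with Klb carries a second signal of the same sense from Fgf15, a hormone of the ileum.

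Each rat had an array of its own, and the TBI arrays stood apart in detection. Leaving control spots aside, each TBI array had 64.1% to 70.1% of its spots well above background, against 56.2% to 60.2% for the other 7 arrays. The dimmest signal that counted as detected lay at 2.54 to 3.16 for TBI rats, and at 3.68 to 4.09 for all other rats (normalized log2 signal). All 9 genes were well above background on all 10 arrays. Cdkn1a, a p53 target used as a check of the labels, read 8.01 to 8.84 in control rats, 13.47 to 14.06 in TBI rats and 12.80 to 13.58 in MASM + TBI rats (normalized log2 signal). The heatmap of the paper names the control and TBI columns the other way round, and the groups here are those of the array labels. The TBI arrays shared a slide that held no other group. So irradiation and slide cannot be told apart between TBI and control, nor MASM and slide between MASM + TBI and TBI. MASM + TBI rat 3 was on the slide of the 3 controls, and the other MASM + TBI rats were on a slide of their own. The hepatocyte markers Alb, Apoa1, Ttr, Tf, Serpina1 and Fgb were all measured, and their summed signal stayed at 93.4% to 108% of the control mean on every array. These markers are among the brightest signals, and quantile normalization gives all arrays the same set of values, which limits how far such a sum can move. Singly, Ttr was lower in every TBI rat than in every control (-0.52 on the log2 scale). Serpina1 (0.17) and Fgb (0.26) were higher in every TBI rat, and the other markers overlapped.

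After TBI alone, Cyp7b1, the oxysterol hydroxylase of the acidic route, rose 2.37-fold and the bile acid receptor Nr1h4 rose 1.58-fold. Both had an adjusted p under 0.05 in limma, the threshold of a call below. So 2 of 9 genes were called higher and 0 lower, where 5.63% of all 41012 probes were called (2.44% higher and 3.19% lower). At an unadjusted p under 0.05 there were 4 of 9 genes by limma, among 23.5% of all probes, and 3 by the methods' t-test, among 15.1%. By the threshold of the study, an unadjusted p under 0.05 and a 1.5-fold difference, taken here with the p of limma, 3 of 9 genes passed, among 12.6% of all probes. The third was Nr0b2, which was 2.97-fold lower after TBI with an adjusted p of 0.0637. In 5 of 9 genes the control and TBI rats did not overlap, 3 higher and 2 lower after TBI, and 30.3% of all probes showed no overlap (11.3% higher and 19.0% lower). The median difference over the 9 genes was 0.50 on the log2 scale, and -0.03 over all probes.

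With MASM before TBI, 0 of 9 genes were called against control, where 2.99% of all probes were called. At an unadjusted p under 0.05 there were 5 of 9 genes by limma, among 16.9% of all probes, and 3 by the methods' t-test, among 14.4%. With the p of limma, Cyp7a1, Cyp8b1 and Cyp7b1 passed the study's threshold upwards, among 8.06% of all probes that passed it in either direction and 3.52% that passed it upwards. With the p of the methods' t-test, 2 of them passed, Cyp7a1 and Cyp8b1. Groups did not overlap for 5 of 9 genes, all 5 higher in MASM + TBI rats, against 18.3% of all probes (9.35% higher). These were Cyp7a1, Cyp8b1, Cyp7b1, Akr1d1 and Nr1h4. The median difference was 0.48 on the log2 scale, and 0.00 over all probes.

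Between MASM + TBI and TBI alone, 0 of 9 genes were called (1.62% of all probes) and 0 passed the study's threshold (7.97% of all probes). An unadjusted p under 0.05 was seen for 1 gene by limma, Cyp7b1, among 17.0% of all probes, and for 0 by the methods' t-test, among 11.7%. No gene of the set separated these groups without overlap, against 18.5% of all probes. The estimate was positive for 6 genes and negative for 3, with a median of 0.08 on the log2 scale and 0.04 over all probes. The control rats enter both comparisons with control, and the TBI rats enter the first and the last, so the comparisons are not independent of each other.

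**Figure D1:**
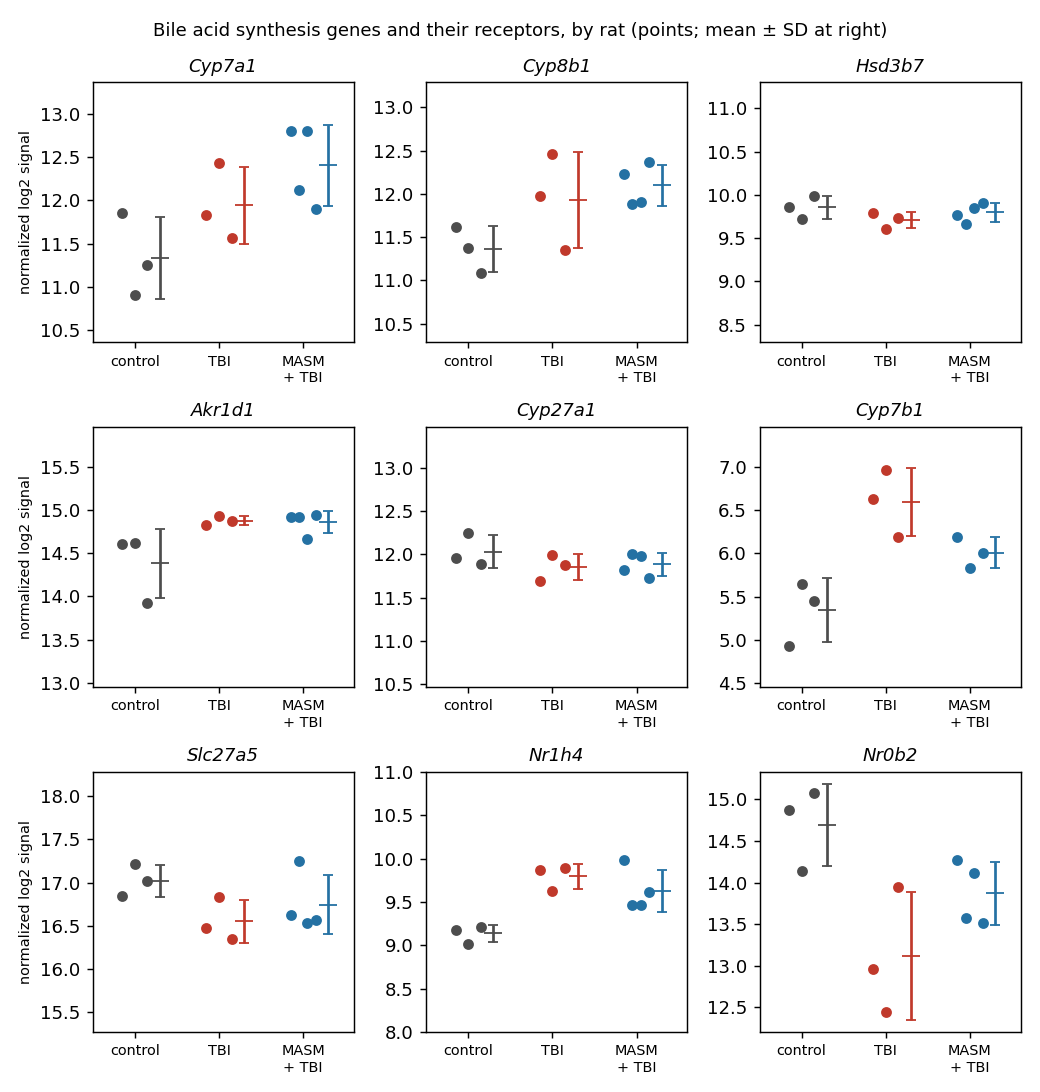
Normalized log2 signal of the 9 measured genes in each rat (points), by group, with the group mean and SD at the right of each group. Cyp7b1 lacks a point for MASM + TBI rat 3, and the lowest Nr0b2 signals, 12.44 and 12.96, belong to TBI rats 2 and 1.

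Cyp7a1 catalyses the rate-limiting step of the classic route. It read 11.85, 10.91 and 11.25 in control rats 1 to 3, 11.83, 12.43 and 11.57 in TBI rats 1 to 3, and 12.80, 12.12, 12.80 and 11.90 in MASM + TBI rats 1 to 4 (normalized log2 signal). All 4 MASM + TBI rats lay above all controls, while TBI rats 1 and 3 lay below control rat 1. The means were 11.34 ± 0.48, 11.94 ± 0.44 and 12.41 ± 0.46 (SD, n = 3, 3 and 4). MASM + TBI exceeded control by 1.07 (SE 0.33, 95% confidence interval 0.32 to 1.81), a 2.1-fold difference with an unadjusted p of 0.0104 and an adjusted p of 0.133. The difference between TBI and control was 0.61 (interval -0.19 to 1.40, adjusted p = 0.335). MASM + TBI differed from TBI by 0.46 (interval -0.28 to 1.21, adjusted p = 0.518). On the slide shared with the controls, MASM + TBI rat 3 was 1.47 above the control mean, which was also the difference in a model with the slide as a block (adjusted p = 0.268). For each gene it could fit (not Cyp7b1), that model compares this 1 rat with the controls, and the rat is assumed to vary like the other groups.

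Cyp8b1, the sterol hydroxylase that directs intermediates towards cholic acid, had the same order of group means. Its signal was 11.62, 11.37 and 11.09 in the controls, 11.98, 12.46 and 11.35 in the TBI rats, and 12.23, 11.88, 11.91 and 12.37 in the MASM + TBI rats. The MASM + TBI rats were again all above the controls, and TBI rat 3 lay among the controls. MASM + TBI was 0.74 above control (SE 0.26, interval 0.14 to 1.33, unadjusted p = 0.0214), a 1.67-fold difference with an adjusted p of 0.192. With the slide as a block it was 0.55 (adjusted p = 0.398). TBI differed from control by 0.57 (SE 0.28, adjusted p = 0.262), and MASM + TBI from TBI by 0.17 (SE 0.26, adjusted p = 0.791). Without TBI rat 3 the last estimate was -0.12.

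The enzymes that modify the steroid ring further down the route were not called by their brightest probes. Akr1d1, the reductase that saturates the ring, read 14.61, 14.62 and 13.92 in the controls, 14.83, 14.93 and 14.87 in the TBI rats, and 14.92, 14.92, 14.67 and 14.94 in the MASM + TBI rats. Every irradiated rat was above every control, and control rat 3 lay well below the other two. The differences from control were 0.50 after TBI (SE 0.18, unadjusted p = 0.0254, adjusted p = 0.151) and 0.48 after MASM + TBI (SE 0.17, unadjusted p = 0.022, adjusted p = 0.195). Without control rat 3 they were 0.26 (adjusted p = 0.245) and 0.25 (adjusted p = 0.352). The dimmer probe of Akr1d1 gave larger differences, 0.71 after TBI (SE 0.17, adjusted p = 0.0482) and 0.76 after MASM + TBI (SE 0.16, adjusted p = 0.0444), so its 2 probes lie on different sides of the threshold. With the slide as a block, the brighter probe differed by 0.28 between MASM + TBI and control. Hsd3b7, the oxidoreductase of the same stretch of the route, stayed between 9.61 and 9.99 in all 10 rats. Its estimated differences were -0.14 (SE 0.10, adjusted p = 0.438), -0.06 and 0.08 in the 3 comparisons.

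Cyp27a1 and Cyp7b1 serve the acidic route. Cyp27a1, the mitochondrial side-chain hydroxylase that also serves the classic route, lay between 11.69 and 12.25 in all rats. Its groups overlapped in every comparison, with differences of -0.18 after TBI (interval -0.48 to 0.12, adjusted p = 0.444) and -0.15 after MASM + TBI (interval -0.43 to 0.13, adjusted p = 0.629). Cyp7b1 read 4.93, 5.65 and 5.45 in the controls, 6.63, 6.97 and 6.19 in the TBI rats, and 6.19, 5.83 and 6.01 in MASM + TBI rats 1, 2 and 4. The spot of MASM + TBI rat 3 was flagged as an outlier by the scanner software and left out, so the fit rests on 9 rats for this gene. TBI rats were all above controls, and MASM + TBI rats lay between, with rat 1 at the level of TBI rat 3. Cyp7b1 rose by 1.25 after TBI (SE 0.25, interval 0.66 to 1.83, adjusted p = 0.0343). MASM + TBI was 0.66 above control (SE 0.25, 1.58-fold, adjusted p = 0.232) and 0.58 below TBI (SE 0.25, interval -1.17 to 0.00, unadjusted p = 0.0494, adjusted p = 0.293).

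The call of Cyp7b1 was sensitive to single rats. Its adjusted p after TBI was 0.0521 to 0.0895 when control rat 1, 2 or 3, TBI rat 1 or 2, or MASM + TBI rat 1, 2 or 4 was left out, and the difference stayed positive in each case. With the flagged spot kept, MASM + TBI rat 3 read 15.01, the adjusted p for TBI against control was 0.771, and the difference between MASM + TBI and TBI was 1.67 instead of -0.58. A normexp background correction gave 0.44 for TBI against control (adjusted p = 0.0431).

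Slc27a5, the ligase that couples bile acids to coenzyme A before conjugation, read 16.84, 17.21 and 17.02 in the controls, 16.47, 16.83 and 16.35 in the TBI rats, and 16.62, 17.25, 16.53 and 16.57 in the MASM + TBI rats. TBI rats were all below the controls by a narrow margin, and MASM + TBI rat 2 had the highest signal of all. The difference after TBI was -0.48 (SE 0.21, interval -0.97 to 0.01, adjusted p = 0.225), and the second probe gave -0.56 (SE 0.25, adjusted p = 0.226). MASM + TBI differed from control by -0.29 (SE 0.20, adjusted p = 0.547) and from TBI by 0.19 (SE 0.20, adjusted p = 0.672).

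Nr1h4, the receptor that senses bile acids, read 9.18, 9.02 and 9.21 in the controls, 9.87, 9.63 and 9.89 in the TBI rats, and 9.98, 9.46, 9.46 and 9.62 in the MASM + TBI rats. All 7 irradiated rats lay above all controls, and the irradiated groups overlapped. Nr1h4 rose by 0.66 after TBI (SE 0.15, interval 0.31 to 1.00, adjusted p = 0.0431). After MASM + TBI the difference from control was 0.49 (SE 0.14, 1.41-fold, unadjusted p = 0.00749, adjusted p = 0.112), and 0.32 with the slide as a block (adjusted p = 0.544). MASM + TBI and TBI differed by -0.17 (interval -0.49 to 0.16, adjusted p = 0.595). The adjusted p after TBI was 0.0557 to 0.114 when any control rat, any TBI rat, or MASM + TBI rat 2 or 4 was left out.

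Nr0b2, the co-repressor induced by Nr1h4, had the widest difference of the set after TBI. Its signal was 14.87, 14.14 and 15.07 in the controls, 12.96, 12.44 and 13.95 in the TBI rats, and 14.27, 13.58, 14.12 and 13.51 in the MASM + TBI rats. All TBI rats were below all controls, and MASM + TBI rats overlapped with both groups. The means were 14.69 ± 0.49, 13.12 ± 0.77 and 13.87 ± 0.38 (SD, n = 3, 3 and 4). TBI differed from control by -1.57 (SE 0.41, interval -2.51 to -0.63, unadjusted p = 0.00456, adjusted p = 0.0637). MASM + TBI differed from control by -0.82 (SE 0.38, adjusted p = 0.329) and from TBI by 0.75 (SE 0.38, interval -0.13 to 1.63, adjusted p = 0.372). Without TBI rat 3, which had the highest signal of its group, the difference between TBI and control was -1.99 (adjusted p = 0.0211). With any other rat left out it was -1.24 to -1.85 and not called (adjusted p = 0.0727 to 0.181).

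The rats of the TBI group stood in opposite order for Nr0b2 and for 3 of the 4 hydroxylases, the exception being Cyp27a1 (11.69, 11.99 and 11.88 in TBI rats 1 to 3). TBI rat 2 had the lowest Nr0b2 signal of the group (12.44) and the highest of Cyp7a1 (12.43), Cyp8b1 (12.46) and Cyp7b1 (6.97), and TBI rat 3 had the highest Nr0b2 signal (13.95) and the lowest of these 3 genes. The full order did not recur in the other groups. Control rat 2, with the lowest Nr0b2 signal of the controls (14.14), had the lowest Cyp7a1 (10.91) but the highest Cyp7b1 (5.65), and control rat 3, with the highest Nr0b2 (15.07), had the lowest Cyp8b1 (11.09). MASM + TBI rat 4, with the lowest Nr0b2 signal of its group (13.51), had the lowest Cyp7a1 (11.90) and the highest Cyp8b1 (12.37). These orders rest on 3 or 4 rats, were noticed in the values and were not tested.

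**Figure D2:**
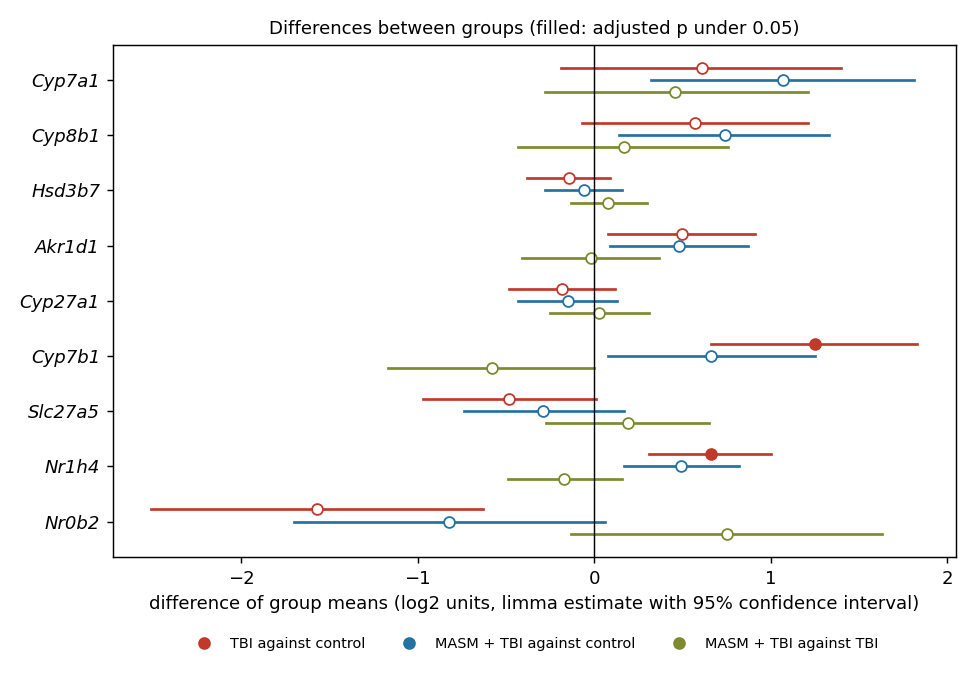
Difference of group means on the log2 scale for each gene and comparison, with its 95% confidence interval, where filled points have an adjusted p under 0.05. Only Cyp7b1 (1.25) and Nr1h4 (0.66) after TBI are filled, and the interval of Nr0b2 after TBI runs from -2.51 to -0.63.

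Promoter sequences are given for Nr0b2 and Cyp8b1 because their estimates ran in opposite directions after TBI (-1.57 and 0.57) and because both hold a match to the motif of Nr5a2 (LRH-1), the nuclear receptor that activates both genes and whose activity Nr0b2 represses. The sequences are those of RefSeq on GRCr8, from 250 bases before to 50 bases after the gene start, and 6 of the 10 genes had an entry. Capitals mark the matches to the motifs searched.
Nr0b2, chr5:151062910-151063209, plus strand: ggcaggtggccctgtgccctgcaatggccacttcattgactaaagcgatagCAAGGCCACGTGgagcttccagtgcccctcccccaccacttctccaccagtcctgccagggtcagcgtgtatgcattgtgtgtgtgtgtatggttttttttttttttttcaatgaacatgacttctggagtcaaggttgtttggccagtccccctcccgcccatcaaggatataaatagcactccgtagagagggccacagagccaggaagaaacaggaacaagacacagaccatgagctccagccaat
Cyp8b1, chr8:130457543-130457842, minus strand: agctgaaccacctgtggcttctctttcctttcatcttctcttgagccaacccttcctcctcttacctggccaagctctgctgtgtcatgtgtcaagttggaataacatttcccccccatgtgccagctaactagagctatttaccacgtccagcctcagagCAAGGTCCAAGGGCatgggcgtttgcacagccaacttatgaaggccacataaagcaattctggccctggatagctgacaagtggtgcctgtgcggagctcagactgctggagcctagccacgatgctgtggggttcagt
The Nr5a2 motif CAAGGNC was found once in the Nr0b2 promoter (bases 52 to 58) and at 2 adjoining places in the Cyp8b1 promoter (bases 162 to 168 and 169 to 175, counted from 1 at the first base printed). The Nr0b2 match shares its last base with an E-box, CACGTG (bases 58 to 63). On either strand, CAAGGNC occurs in 18.3% of 27457 promoters of this length and CACGTG in 6.65%. The Cyp27a1 promoter held 1 CAAGGNC, which overlaps a match to AGGTCA, the hexamer of many nuclear receptors, and a second match to that hexamer, which occurs in 15.7% of promoters. The promoters of Baat, Slc27a5 and Hsd3b7 held no match to any motif searched. The D-box TTATGTAA (0.881% of promoters) and the element bound by Nr1h4, AGGTCA and its inverted repeat around 1 free base (0.0255%), were in none of the 6 windows.

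Other genes of the pathway were counted in 3 lists. Of 14 other synthesis enzymes 13 were measured, and limma called 0 in each comparison, as did the methods' t-test. At an unadjusted p under 0.05 there were 5 after TBI (Ch25h, Cyp39a1, Hsd17b4, Fdxr and Por), 1 after MASM + TBI (Fdxr) and 2 between MASM + TBI and TBI (Ch25h and Por), where 23.5%, 16.9% and 17.0% of all probes had such a p. After TBI 2 of the 13 passed the study's threshold, which 12.6% of all probes passed. They were Ch25h, an oxysterol-forming hydroxylase, with a difference of 0.80 (adjusted p = 0.121) and Por, the electron donor of microsomal cytochromes P450, with -0.86 (adjusted p = 0.0883). Between MASM + TBI and TBI only Ch25h passed it (-0.78, adjusted p = 0.171), among 7.97% of all probes. The median difference of the list was -0.01 after TBI and 0.00 in both other comparisons.

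Of 18 other regulators and receptors 16 were measured, and 5 were called after TBI, 1 higher and 4 lower, where 5.63% of all probes were called (2.44% higher and 3.19% lower). In MASM + TBI against control 1 was called (2.99% of all probes), and 1 between MASM + TBI and TBI (1.62%). Nr1i3 (CAR) and Nr1i2 (PXR), receptors for foreign compounds that also sense bile acids, fell after TBI by 0.98 (SE 0.21, adjusted p = 0.0327) and by 0.56 (SE 0.09, adjusted p = 0.0145). In MASM + TBI they differed from control by -0.30 (adjusted p = 0.514) and -0.26 (adjusted p = 0.159). They differed from TBI by 0.69 (adjusted p = 0.133) and 0.29 (adjusted p = 0.146). Nr5a2 read 9.65, 9.70 and 9.55 in the controls, 9.13, 9.26 and 9.17 in the TBI rats, and 9.19, 9.51, 9.33 and 9.38 in the MASM + TBI rats. All irradiated rats were below the controls, and Nr5a2 fell by 0.45 after TBI (SE 0.10, adjusted p = 0.0353). Mafg, a small Maf protein that represses bile acid synthesis genes, fell by 0.44 after TBI (SE 0.09, adjusted p = 0.0330) and by 0.42 after MASM + TBI (SE 0.09, adjusted p = 0.0408), the only call of the list in the latter comparison. With the slide as a block, MASM + TBI rat 3 alone against the controls, the latter difference was -0.27 (adjusted p = 0.305), and the second probe of Mafg gave -0.31 (adjusted p = 0.0848). With 75th percentile scaling neither difference of Mafg was called (-0.39, adjusted p = 0.0632, and -0.34, adjusted p = 0.198). Gpbar1 (TGR5), the membrane receptor for bile acids, exceeded the background clearly in 2 of 3 TBI rats and in no rat of the other groups, whose arrays had the higher floors given above, and the part of the floor in this difference was not tested. Its means were 1.84 in control, 3.35 in TBI and 1.98 in MASM + TBI, called in TBI against control (adjusted p = 0.00505) and in MASM + TBI against TBI (adjusted p = 0.0111). No fold is given, since the TBI mean lay under the lowest signal well above background on the control arrays (3.88 on average), and with the normexp correction neither difference was called (adjusted p = 0.344 and 0.626). The median difference of the list was -0.34 after TBI, -0.07 after MASM + TBI and 0.14 between MASM + TBI and TBI. Several calls depended on single rats. The adjusted p after TBI was 0.0537 to 0.0978 for Nr5a2 without any control rat, any TBI rat or MASM + TBI rat 4, and 0.0549 to 0.0888 for Nr1i3 without control rat 1 or 3, any TBI rat or MASM + TBI rat 1. For Mafg it was 0.0523 to 0.108 without any control rat, TBI rat 1 or 2, or MASM + TBI rat 1 or 2, and after MASM + TBI 0.0539 to 0.143 without any control rat, TBI rat 1 or 2, or MASM + TBI rat 1, 2 or 4.

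Of 14 carriers of bile acids and bile lipids 13 were measured, and 3 were called after TBI, 1 higher and 2 lower (5.63% of all probes, 2.44% higher and 3.19% lower). In each of the other comparisons 1 was called, among 2.99% of all probes for MASM + TBI against control and 1.62% for MASM + TBI against TBI. Abcc2 (MRP2), the canalicular pump for conjugated organic anions, fell by 0.93 after TBI (SE 0.10, adjusted p = 0.00312) and by 0.73 after MASM + TBI (SE 0.10, adjusted p = 0.00834). Every irradiated rat lay below every control, and both calls held with every single rat left out. The second was not called with 75th percentile scaling (-0.60, adjusted p = 0.0711) or with the replicate block (adjusted p = 0.0862). With the slide as a block, which again leaves MASM + TBI rat 3 alone against the controls, the second difference was -0.60 (adjusted p = 0.171). Abcb4, the canalicular flippase for phosphatidylcholine, rose by 0.90 after TBI (SE 0.18, adjusted p = 0.0281), and its adjusted p was 0.0562 to 0.0831 without any control rat or TBI rat 2. In MASM + TBI it differed from control by 0.71 (SE 0.17, adjusted p = 0.0654) and from TBI by -0.19 (adjusted p = 0.618). Abcg8, which forms a sterol exporter of the canaliculus with Abcg5, read 5.66, 5.68 and 5.31 in the controls, 4.37, 4.36 and 4.24 in the TBI rats, and 6.47, 5.37, 6.03 and 6.48 in the MASM + TBI rats. TBI rats lay below all other rats. Abcg8 fell by 1.23 after TBI (SE 0.28, adjusted p = 0.0408) and was 1.77 higher in MASM + TBI than in TBI (SE 0.26, 3.4-fold, adjusted p = 0.0176), the only carrier called in that comparison. Abcg5 differed by -0.05 after TBI (adjusted p = 0.962) and by 0.85 between MASM + TBI and TBI (adjusted p = 0.391), with overlap in both. For Abcg8 the normexp correction, whose offset shrinks differences between dim signals, gave -0.25 (adjusted p = 0.212) and 0.45 (adjusted p = 0.0755). The second probe of Abcg8 was above background on no array, and the mean over both probes gave -0.61 (adjusted p = 0.303) and 1.17 (adjusted p = 0.115). The adjusted p after TBI was 0.0527 to 0.108 without any control rat, any TBI rat or MASM + TBI rat 3, and between MASM + TBI and TBI it was 0.0526 when TBI rat 2 was dropped and 0.0524 when MASM + TBI rat 1 was dropped. The median difference over the carriers was -0.08 after TBI, 0.20 after MASM + TBI and 0.21 between MASM + TBI and TBI.

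**Figure D3:**
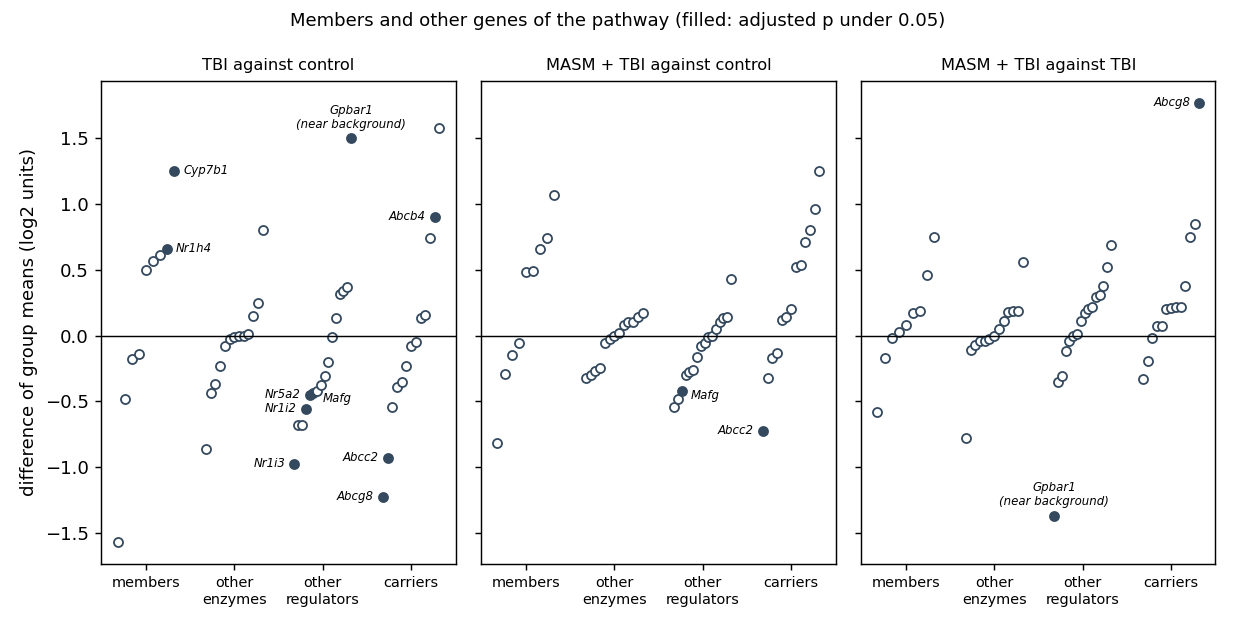
Difference of group means on the log2 scale for the 9 genes of the set and for the other enzymes (13), regulators (16) and carriers (13), by comparison, where filled points have an adjusted p under 0.05. Abcg8 is the highest point between MASM + TBI and TBI (1.77), and Nr0b2 the lowest after TBI (-1.57).

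**Figure D4:**
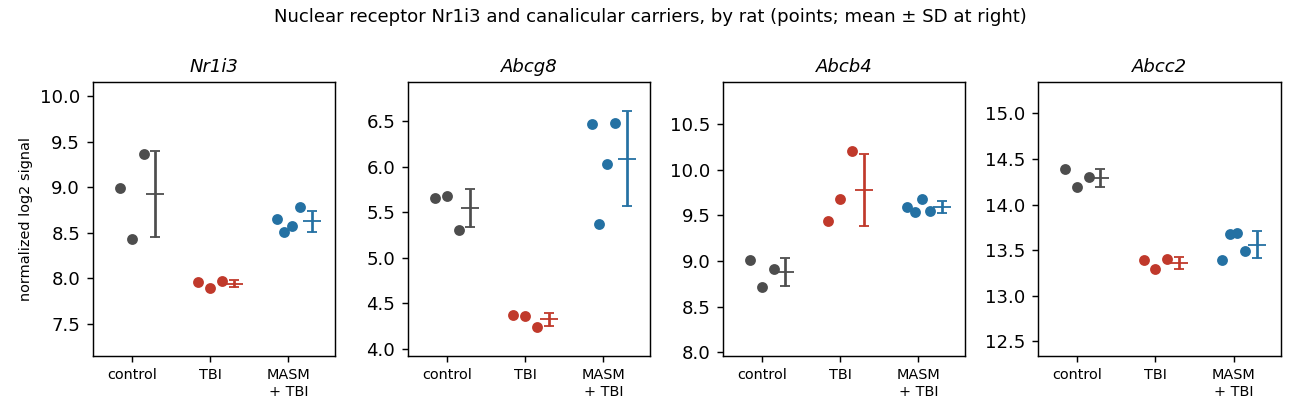
Normalized log2 signal of the receptor Nr1i3 and 3 canalicular carriers in each rat (points), with the group mean and SD at the right of each group. Abcg8 lies between 4.24 and 4.37 in the TBI rats and at 5.31 or above in all others.

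The liver was measured as bulk tissue, in which fewer cells of a type and less RNA per cell cannot be told apart. Of the lymphocyte markers 6 of 6 were measured, Cd3e being above background on no array, and 4 were called lower after TBI (3.19% of all probes) and 3 after MASM + TBI, where 2.99% of all probes were called in either direction. Their summed signal was 91.4% to 117% of the control mean in controls, 30.2% to 61.7% after TBI and 23.9% to 40.3% after MASM + TBI. Kupffer cell markers (5 of 6 measured) summed to 83.6% to 119%, 82.6% to 153% and 65.8% to 81.6%. Cholangiocyte markers (4 of 6) summed to 92.1% to 109%, 74.0% to 140% and 71.9% to 106%, and sinusoidal endothelial markers (3 of 5) to 86.9% to 107%, 115% to 142% and 101% to 127%. Stellate cell markers (4 of 5) summed to 88.8% to 114%, 79.3% to 101% and 76.0% to 90.9%, and 1 of them, Lrat, was called lower after TBI (-0.62, adjusted p = 0.0116) and after MASM + TBI (-0.60, adjusted p = 0.0147). Markers of the ileal enterocyte (4 of 4) summed to 83.3% to 113%, 150% to 177% and 139% to 174%. Fabp6 was above background on no array and Vil1 on 1 TBI array, while Slc10a2 and Fabp2 were well above it on every array. Of the ileal markers Fabp2 was called higher after MASM + TBI (0.82, adjusted p = 0.0425), and no marker of the remaining lists was called. The part of these shifts in the results for the bile acid genes was not tested.

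Genes with the profile most like that of a member were ranked among 9575 genes by the root mean square difference of log2 signals over the 10 rats, each gene centred on its own mean. For Cyp7a1 they included Msmo1 (0.28), an enzyme of cholesterol synthesis, Disp1 (0.31) and Spon1 (0.33), where the median over all genes was 0.64. Msmo1 had group means of 14.79 in control, 15.34 in TBI and 15.96 in MASM + TBI. For Cyp8b1 they were Plcb1 (0.18), then Efs, Or2d36b, Adam19 and Slc41a2 (0.21 each), with a median of 0.50. For Nr0b2 they were Gdf10 (0.24), Zfp354a (0.26), Cdkn2c and Abcc8 (0.29 each) and Txnrd3 (0.34), with a median of 0.80. The 10 rats share their groups and slides in all these profiles, and the ranks are a description with no test.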

How the data were processed

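Liver RNA of 10 rats was labelled with Cy3 and hybridised to 1 array per rat. The authors deposited for each spot the processed intensity of Agilent Feature Extraction 10.7, linear in scale, corrected for background and not normalized between arrays. The deposited value table held the same intensities. Control spots (1639 of 45018 per array) and spots flagged as outliers (76 to 112) were left out. The remaining values were converted to log2, normalized by quantiles as the methods of the study state, and averaged where a probe had several spots. Groups and doses came from the array labels, whose dose differs from that in the paper. Symbols came from accessions through a RefSeq gene table, which named 16968 of 20707 probes with an accession. The brightest probe carried a gene's value.

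Group means of the 3 groups were estimated from all 10 arrays with limma 3.58.1 in R 4.3.3, and the Benjamini-Hochberg adjustment ran over 41012 probes, of which 67 lacked a value on an array. The fit was tested on simulated data. Plots were made with matplotlib 3.10.9. All members of the set were named, and other pathway genes where called in at least 1 comparison. The uncalled enzymes named (Ch25h, Cyp39a1, Hsd17b4, Fdxr and Por) and the carrier Abcg5 fall outside that rule and were chosen after their values were seen. The members and lists were chosen with earlier results of these data known. Some genes among the markers and the most similar profiles are not reported here. The number of rats limits the precision. Alternatives were another scaling, a normexp correction (offset 50, on median pixel intensities), leaving out dim probes, models of 2 groups, the methods' t-test, another prior, blocks by replicate number and slide, the mean over probes, and each rat left out. Keeping outlier spots and a comparison within a slide were chosen after seeing the data.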

Additional observations from a re-analysis of the deposited data

Results flagged for a closer look

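Within the MASM + TBI group, 1 rat stood apart from the other 3 in each of 2 genes. Slc27a5 in rat 2 read 17.25 while the others read 16.53 to 16.62, a gap of 0.874 of the range of the group, above Dixon's 95% limit for 4 samples. Akr1d1 in rat 3 read 14.67 while the others read 14.92 to 14.94, a gap of 0.942 of the range. Rat 3 is the rat of this group on the slide of the controls, and the other 3 shared another slide. Of 17 genes screened in this group, 8 of them of the set, 2 were flagged. Chance alone flags about 1 in 20 groups, and groups of 3 were not tested.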

How the results depend on the processing

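The count of genes of the set called after TBI, 2 of 9, was 0 in models of only the groups compared and in the methods' t-test, 1 with the replicate block (Nr0b2, while Cyp7b1 at an adjusted p of 0.116 and Nr1h4 at 0.0728 were not called), 1 with outlier spots kept (Nr1h4), and 4 with slide as a random block. After MASM + TBI against control it was 0, and 1 with slide as a random block. Leaving out each rat in turn gave 0 to 2 calls after TBI and 0 in both other comparisons. No called difference changed sign. The causes were not tested, except that outlier spots add 1 aberrant value for Cyp7b1 and that smaller models hold fewer rats. Same-numbered rats did not deviate together (correlations of their deviations between -0.125 and 0.169), so replicate numbers do not pair them; with the replicate block 1053, 298 and 22 probes were called in the 3 comparisons, against 2309, 1227 and 665 without it. The methods' t-test called 10, 40 and 4 probes after adjustment, and at the study's threshold it held 3, 2 and 0 of the 9 genes. Scaling to the 75th percentile called 7494, 815 and 5503 probes, and 24.2%, 42.7% and 82.5% of them were higher, against 43.4%, 42.1% and 56.1% with quantile normalization. Slide as a random block called 6738, 2842 and 2044 probes at a correlation of -0.133. That block cannot separate TBI from the slide that held only TBI arrays. Its negative correlation makes the errors of TBI against control smaller, so its extra calls there are not added support. Slide as a fixed block compares 1 MASM + TBI rat with the controls, so its calls are not counted here. Models of 2 groups called 977, 1371 and 263. Nr0b2 after TBI was called with 75th percentile scaling (adjusted p = 0.0355), without dim probes (0.0379), with the replicate block (0.0397) and with slide as a random block (0.0153). Over 21 settings its adjusted p was 0.0153 to 0.329, that of Cyp7b1 0.00848 to 0.771 and that of Nr1h4 0.00939 to 0.231. Of the 14 calls named for the set, the regulators and the carriers, 0 were kept by the methods' t-test (adjusted p = 0.0952 to 0.363), 2 with the replicate block, 4 in models of 2 groups, 11 with 75th percentile scaling, 10 with normexp, and 5 to 13 with 1 rat left out. The calls of cell type markers are not in these counts. Signals near background limit Gpbar1. Cyp7b1 and Abcg8 were well above background on every array but dim. Normexp took their differences after TBI from 1.25 to 0.44 and from -1.23 to -0.25.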
